A study of Mus musculus with 2 samples.

Results

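Viperin (Rsad2), the Mx GTPases and 7 further effectors of the interferon-induced antiviral state were examined in dendritic cells that were derived from mouse bone marrow (GMDC in the labels). The 10 genes, Rsad2, Cmpk2, Mx1, Mx2, Isg20, Eif2ak2, Zbp1, Bst2, Ifitm2 and Ifitm3, were taken by name out of 22180 genes that had a probe set annotated with exactly 1 symbol. Each of the 10 had 1 such probe set, and 0 probe sets with several symbols listed any of them. RNA came from a control culture and from a culture given medium in which topotecan-treated E0771 cells had been kept; E0771 is a mammary carcinoma line of the mouse, and topotecan is an inhibitor of topoisomerase I. There was 1 array for each culture, so no difference below has a replicate check and no test was possible. The labels give neither the medium of the control culture nor the strain, age or number of the mice, nor a dose or time. Topotecan treatment of the tumour cells therefore cannot be told apart from the presence of tumour-conditioned medium, or of any topotecan carried with it.

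These genes act downstream of the type I interferon receptor. Interferon binding activates the kinases JAK1 and TYK2, which lead to assembly of ISGF3, a transcription factor complex that binds interferon-stimulated response elements (ISRE) in promoters. The resulting proteins block viruses at different steps: at entry (the IFITM proteins), during genome replication and translation (viperin, the Mx GTPases, PKR and ISG20), and at release of particles (tetherin). In dendritic cells they are part of the response to interferon made by the cells themselves or by their neighbours.

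All values are log2 signals of a probe set, and a difference is the conditioned-medium value less the control value. A gene was kept when the higher of its 2 values reached 4.10, the median of all values on both arrays, which left 13712 of 22180 genes. All 10 effectors were kept, and all 10 had control values above that level too, so none of their differences started from signal under the filter. Of the 10, 8 were 2-fold or more higher with conditioned medium, 0 were 2-fold or more lower and 2, Ifitm2 and Ifitm3, lay between. For comparison, 8.63% of all kept genes were 2-fold or more higher and 6.84% were lower by that size. At 1.5-fold, 8 effectors were higher, beside 16.6% of kept genes (17.9% were lower). At 3-fold, 7 were higher, beside 4.14% (2.11% were lower). The median difference of the 10 genes was 2.20 on the log2 scale (quartiles 1.49 and 2.98), against -0.07 over all kept genes (quartiles -0.45 and 0.36). The differences spread widely among the 10 genes, from 0.04 for Ifitm2 to 5.24 for Rsad2.

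**Figure D1:**
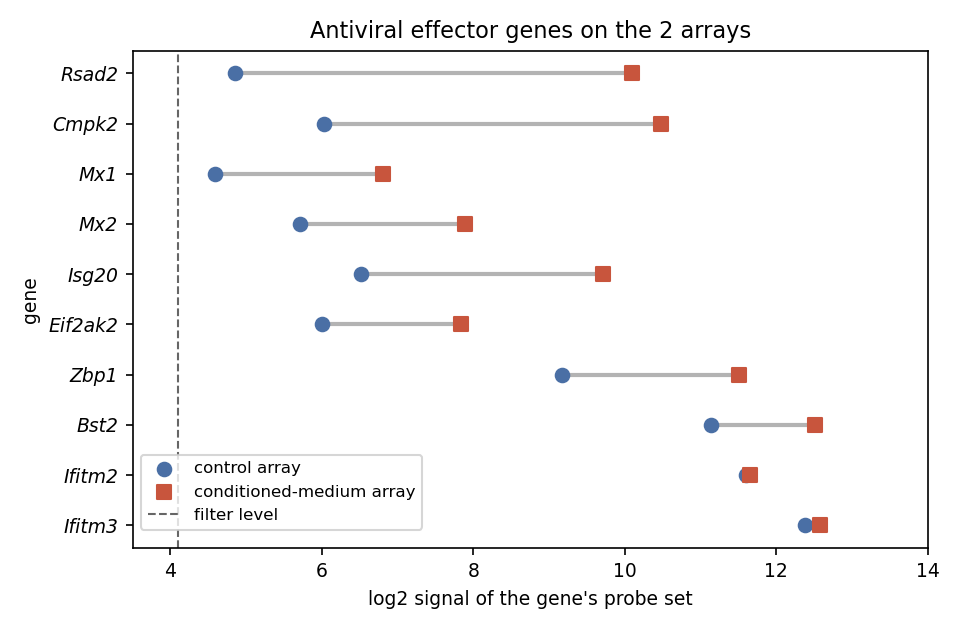
Log2 signal (x axis) of the 10 antiviral effector genes (y axis) on the control array (circles) and the conditioned-medium array (squares), 1 array each; grey bars join the values of a gene and the dashed line is the filter level of 4.10. Rsad2 and Cmpk2 have the longest bars, while the 2 values of Ifitm2 and those of Ifitm3 nearly coincide.

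The only gauge of measurement error was the disagreement between probe sets of the same gene. Over 652 genes with 2 or more kept probe sets, the log2 differences had a pooled SD of 0.46 within genes (787 degrees of freedom). The 2-fold rule, a log2 difference of 1, already lies above 1.96 times this SD, or 0.90. The 8 effectors past 2-fold therefore exceeded that multiple by definition. The differences of Ifitm2 and Ifitm3 were smaller than the SD itself. This SD covers probe sets on the same 2 arrays only and says nothing of the spread between cultures or animals.

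Rsad2 and Cmpk2, neighbouring genes on chromosome 12, showed the largest differences of the 10. Rsad2 encodes viperin, a radical SAM enzyme that turns CTP into a chain-terminating nucleotide. Its signal (probe set 17280327) was 4.85 on the control array and 10.10 on the other, a 37.9-fold difference. Only 20 of the 13712 kept genes had a larger one. The control value of Rsad2 lay just 0.75 above the filter level, so the size of this ratio rests on a low signal. Cmpk2 encodes a mitochondrial nucleoside monophosphate kinase that phosphorylates CMP and UMP. It read 6.03 and 10.47 (probe set 17274620), which is 21.8-fold higher and the 48th largest difference. The 2 differences of this pair were 0.80 apart on the log2 scale. The SD between probe sets of a gene does not measure the spread of such a gap between genes. The gene on the far side of Rsad2, Rnf144a, was 1.70-fold higher (4.66 and 5.42), and Sox11, on the far side of Cmpk2, lay under the filter level on both arrays (3.11 and 3.78).

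The promoters of these neighbours are shown because the pair had the largest differences while the letters of the ISRE core were found in the window of Rsad2 and not in that of Cmpk2. The Bst2 and Ifitm2 promoters, which both held the core, are set beside them because Bst2 was 2.59-fold higher and Ifitm2 nearly level. Each line gives the 150 bases that end just before the annotated start, 5′ to 3′ on the gene's strand, from RefSeq on GRCm38.p6. The windows are chr12:26456453-26456602 on the minus strand for Rsad2, chr12:26469065-26469214 on the plus strand for Cmpk2, chr8:71537473-71537622 on the minus strand for Bst2 and chr7:140955962-140956111 on the minus strand for Ifitm2. Capitals mark the ISRE core, searched as GAAA, any 2 bases and GAAA, on either strand.
Rsad2: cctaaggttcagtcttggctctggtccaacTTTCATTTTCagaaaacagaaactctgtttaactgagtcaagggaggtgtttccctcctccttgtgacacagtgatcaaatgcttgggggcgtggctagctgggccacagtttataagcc
Cmpk2: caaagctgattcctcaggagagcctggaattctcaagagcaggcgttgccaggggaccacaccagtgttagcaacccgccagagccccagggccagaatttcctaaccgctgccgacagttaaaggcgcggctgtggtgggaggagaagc
Bst2: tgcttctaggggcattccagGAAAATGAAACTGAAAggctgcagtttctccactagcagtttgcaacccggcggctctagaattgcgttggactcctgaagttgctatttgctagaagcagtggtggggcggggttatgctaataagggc
Ifitm2: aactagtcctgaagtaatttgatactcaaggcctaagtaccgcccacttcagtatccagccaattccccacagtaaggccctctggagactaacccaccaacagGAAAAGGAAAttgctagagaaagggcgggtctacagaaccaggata

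In Rsad2 the core lay on the opposite strand, from -120 to -111 relative to the start, and read GAAAATGAAA in the motif's orientation. Bst2 held 2 overlapping copies, GAAAATGAAA from -130 to -121 and GAAACTGAAA from -124 to -115. The first copy also overlapped a match to the gamma-activated sequence TTCNNNGAA, from -136 to -128. Ifitm2 held GAAAAGGAAA from -46 to -37. In Ifitm3 and Eif2ak2 the matches lay just after the start: GAAAAGGAAA at 3 to 12 and GAAACCGAAA at 20 to 29 in Ifitm3, and GAAAACGAAA at 19 to 28 in Eif2ak2.

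The search covered 250 bases before to 50 bases after each annotated start, on both strands. RefSeq windows were matched for 7 of the 10 genes; Mx1, Mx2 and Zbp1 had none in the table used. The core was present in 5 of the 7, and absent from the window of Cmpk2 and from the 3 windows of Isg20. Of 32851 promoter windows of all genes 3.44%, and of 27025 genes 3.99%, held it. Of the 7 genes, 4 (Isg20, Ifitm3, Bst2 and Eif2ak2) held the gamma-activated sequence, against 9.55% of all genes, and 2 (Rsad2 and Ifitm2) held TATAAA, against 15.7%. In Rsad2 TATAAA was read on the opposite strand at -10 to -5. Among kept genes with a window, the ISRE core was found in 100 of 906 that were 2-fold or more higher (11.0%), in 26 of 745 that were 2-fold or more lower (3.49%) and in 324 of the 9856 that were not 2-fold higher (3.29%). Presence of the core did not order the 7 effectors by size: the 5 with it ranged from 0.04 to 5.24 on the log2 scale, and the 2 without it, Isg20 and Cmpk2, had differences of 3.19 and 4.45. A match of letters is a description and not a measured binding site.

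The Mx genes had nearly equal differences. They encode dynamin-like GTPases that trap viral nucleocapsids. Mx1 (probe set 17332531) read 4.59 and 6.81, a 4.66-fold difference, and Mx2 (probe set 17327557) read 5.72 and 7.89, a 4.52-fold difference. The 2 differences, 2.22 and 2.18, were 0.04 apart on the log2 scale. Mx1 had the lowest control value of the 10 relative to the filter, 0.49 above it. RefSeq lists both Mx genes as transcribed pseudogenes in the C57BL/6J assembly GRCm38.p6. As background, many laboratory strains carry defective Mx alleles, so an RNA signal is no measure of working protein. Of 9 kept genes for other large GTPases of the dynamin superfamily (10 listed), 0 were 2-fold or more higher or lower, with a median of -0.19. The extremes of this list were Dnm2 (0.03) and Mfn1 (0.01) at the top and Dnm1 (-0.56) and Mfn2 (-0.42) at the bottom.

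Fam3b, which encodes a secreted cytokine-like protein, lies next to both Mx genes on chromosome 16 in the RefSeq order and was higher than either. It read 2.85 in the control, under the filter level, and 8.05 with conditioned medium. That is 36.8-fold as deposited and 15.4-fold when the control is set to the filter level. The genes on the outer sides were Bace2 (3.66 and 4.44) and Tmprss2 (3.13 and 3.83, under the filter on both arrays). Over the 16 genes adjacent to the 10 effectors that are not effectors themselves, 10 were kept, 4 lay under the filter and 2 had no single-symbol probe set. Of the 10 kept, 3 were 2-fold or more higher (Fam3b, Ifitm1 and Ifitm6) and 0 lower, with a median of 0.60 as deposited. Fam3b and Bace2 were kept only through their conditioned-medium values, so their differences could only be above 0. That of Bace2 was 0.78 as deposited and 0.34 when its control was set to the filter level, so the median leans upward. Adjacent genes were looked up after the effectors' values had been seen.

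**Figure D2:**
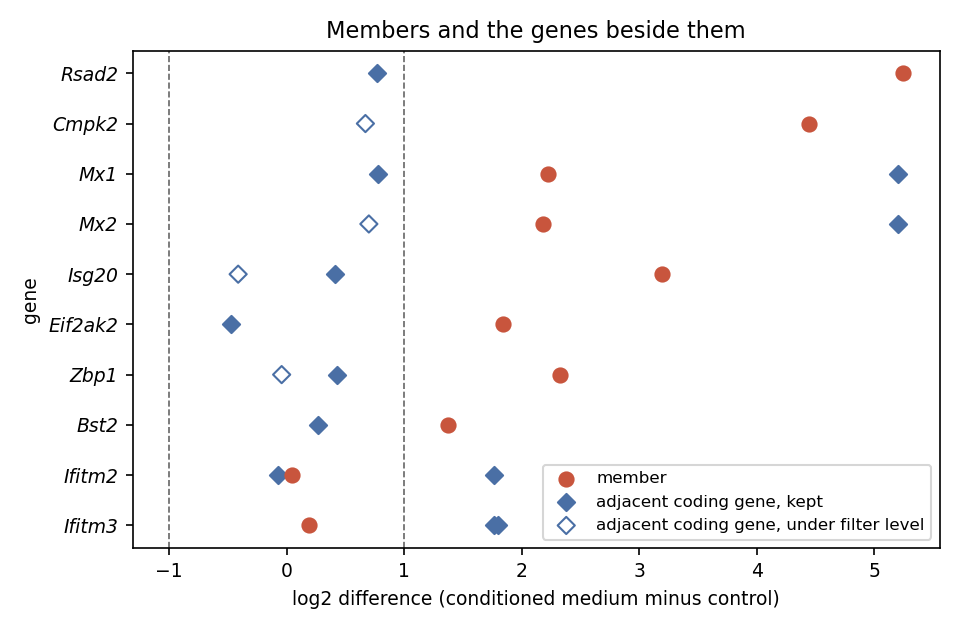
Log2 difference, conditioned medium minus control (x axis), of each antiviral effector gene (circles; y axis) and of the coding genes next to it in RefSeq order (filled diamonds kept, open diamonds under the filter level on both arrays); effectors that adjoin each other are not repeated as neighbours and dashed lines mark 2-fold. Fam3b, at 5.20, appears beside both Mx1 and Mx2, and for Ifitm2 and Ifitm3 the neighbours Ifitm1 (1.76) and Ifitm6 (1.80) lie to the right of the members and Ifitm5 (-0.07) just to the left of Ifitm2.

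Isg20, which encodes an interferon-induced exonuclease that degrades single-stranded RNA, had the third largest difference of the 10. Its signal (probe set 17479317) was 6.51 on the control array and 9.71 on the conditioned-medium array, 9.15-fold higher. The gene beside it, Aen, encodes a related exonuclease and is a p53 target. Aen read 5.10 and 5.51, a 1.33-fold difference. Across a list of 7 exonucleases and nucleotide-degrading enzymes (6 measured, 4 kept), 0 were 2-fold or more higher and 1, Eri1, was lower (-1.02), and it no longer passed 2-fold when the lowess curve of difference on level was subtracted. The other kept genes of this list were Samhd1 (-0.27), Rexo4 (0.04) and Aen (0.41), and the median was -0.11.

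Eif2ak2 encodes PKR, the kinase that senses double-stranded RNA and halts translation by phosphorylating eIF2 alpha. It read 6.00 and 7.84 (probe set 17347355), 3.58-fold higher. The other 3 eIF2 kinases were not 2-fold apart: Eif2ak1 (HRI) differed by -0.13, Eif2ak3 (PERK) by 0.05 and Eif2ak4 (GCN2) by -0.66. In the list of eIF2 kinases and partners, 3 of 10 kept genes were 2-fold or more higher and 0 lower, with a median of -0.20. The 3 were Ddit3, which encodes the stress factor CHOP (3.21-fold), and the eIF2 phosphatase subunits Ppp1r15a (3.03-fold) and Ppp1r15b (2.01-fold). With quantile normalization, 2 and not 3 passed upward. Prkra, which encodes the PKR activator PACT, was at the low end with -0.73.

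Zbp1 encodes a sensor of Z-form nucleic acid that recruits RIPK3 and can start necroptosis. It read 9.17 in the control and 11.50 with conditioned medium (probe set 17395079), 5.03-fold higher. Of 6 kept genes of its cell death pathway (7 listed), 3 were 2-fold or more higher and 0 lower, with a median of 0.82. Ripk3, the kinase that ZBP1 binds, was 4.11-fold higher (7.04 and 9.08) and Mlkl, which encodes the pore-forming executor, was 3.57-fold higher (7.87 and 9.71). Gsdmd, the gasdermin D gene, was the third (2.36-fold). The lowest were Casp6 (-0.88) and Fadd (-0.28), and Casp8, whose product restrains necroptosis, differed by 0.39.

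Bst2 and the Ifitm genes encode membrane proteins; Bst2 was higher with conditioned medium, whereas Ifitm2 and Ifitm3 were nearly level. Bst2 encodes tetherin, which holds budding virus particles on the cell surface. Its signal (probe set 17510345) was 11.14 and 12.51, 2.59-fold higher. Ifitm2 (probe set 17497713) read 11.61 and 11.65, a ratio of 1.03, and Ifitm3 (probe set 17497718) read 12.38 and 12.57, a ratio of 1.14. IFITM proteins lie in endosomal and plasma membranes and hinder fusion of viral and cellular membranes. Of the 3 other kept Ifitm genes, all adjacent to them, 2 were higher, Ifitm1 by 3.39-fold (6.68 and 8.44) and Ifitm6 by 3.49-fold (9.80 and 11.60), and Ifitm5 (4.90 and 4.83) was nearly level. Ifitm10 lay under the filter on both arrays (3.91 each). Ifitm genes are similar in sequence, and whether their probe sets share signal was not tested.

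Bst2, Ifitm2 and Ifitm3 were the 3 effectors with control values of 11 or more, where the arrays, whose highest values were 13.42 and 13.50, leave less room for a higher signal. Of the 219 kept genes at such control levels, a class set after the values were seen, 3 (1.37%) were 2-fold or more higher and 12 (5.48%) were lower by that size, with a median of -0.23. Those 3 were Bst2, which had the largest difference of the class, Lgals3bp (1.23) and Ly6e (1.10). In the same class Ifitm3 ranked 27 and Ifitm2 ranked 47 from the top. Whether saturation holds down the differences of these 3 genes was not tested.

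**Figure D3:**
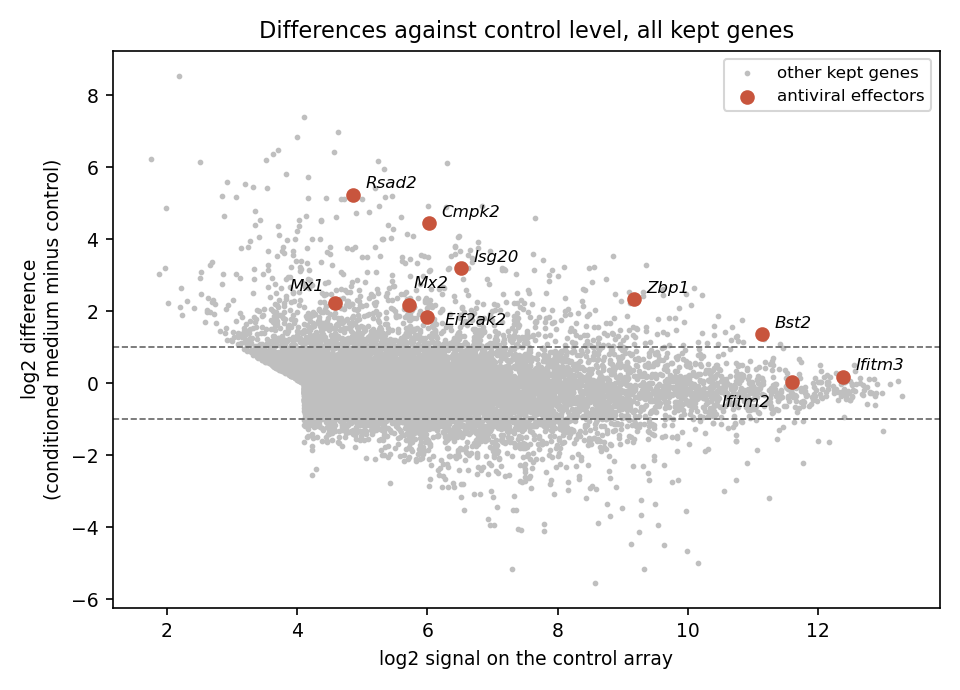
Log2 difference, conditioned medium minus control (y axis), against the log2 signal on the control array (x axis) for the 13712 kept genes (grey) with the 10 antiviral effectors marked; dashed lines are 2-fold. Bst2 lies at the upper edge of the genes at control values of 11 or more, and Ifitm2 and Ifitm3 lie near 0 in that range.

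The genes upstream of the effectors were mixed, with some higher and others within 2-fold. Ifnb1, the interferon beta gene, read 2.19 and 10.73, which is 99.0-fold when the control is set to the filter level. In the list of interferon induction genes 5 of 11 kept genes were 2-fold or more higher and 0 lower, with a median of 1.0. After Ifnb1 came Irf7, a transcription factor that amplifies interferon production (10.7-fold, 7.78 and 11.19), and the lowest were the adaptor gene Ticam1 (-0.55) and the kinase gene Tbk1 (-0.32). Of 6 kept ISGF3 signalling genes, 3 were 2-fold or more higher and 0 lower, with a median of 1.02. Stat2 was 4.54-fold (5.19 and 7.37), Irf9 2.65-fold (6.21 and 7.62) and the receptor gene Ifnar2 2.15-fold higher (9.18 and 10.28). Ifnar1 (0.94), Tyk2 (0.67) and Jak1 (0.36) lay between. Feedback inhibitors included Socs1 (16.4-fold) and Usp18 (4.82-fold) on the higher side, with Ptpn6 (-0.19) and Pias2 (0.16) the lowest; 3 of 10 kept were 2-fold or more higher and 0 lower, with a median of 0.64.

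Among 40 kept interferon-stimulated genes outside the 10 effectors (46 listed), 30 were 2-fold or more higher and 10 were within 2-fold, 0 being lower by that size; the median was 1.49. The highest were Ch25h, which encodes an oxysterol-producing hydroxylase (30.7-fold), and Oasl1, an oligoadenylate synthetase-like gene (13.8-fold), and the lowest were Samhd1 (-0.27) and Zc3hav1 (0.38), which encodes the zinc-finger antiviral protein. Rsad2, at 5.24, exceeded every one of these 40 differences, and Ifitm2 and Ifitm3 lay below all but that of Samhd1. Genes of pyrimidine nucleotide metabolism, only some of which help to make the CTP used by viperin, were mixed. Of 8 kept, 2 were 2-fold or more higher, the CTP synthase gene Ctps (2.74-fold) and the uridine-cytidine kinase gene Uck2 (2.09-fold). Another 2 were lower by that size, Ctps2 (-1.66) and the thymidylate kinase gene Dtymk (-1.53). With the probe sets of each gene averaged, 1 and not 2 passed upward. The median of that list was 0.26, and Cmpk1, the cytosolic counterpart of Cmpk2, differed by 0.22.

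**Figure D4:**
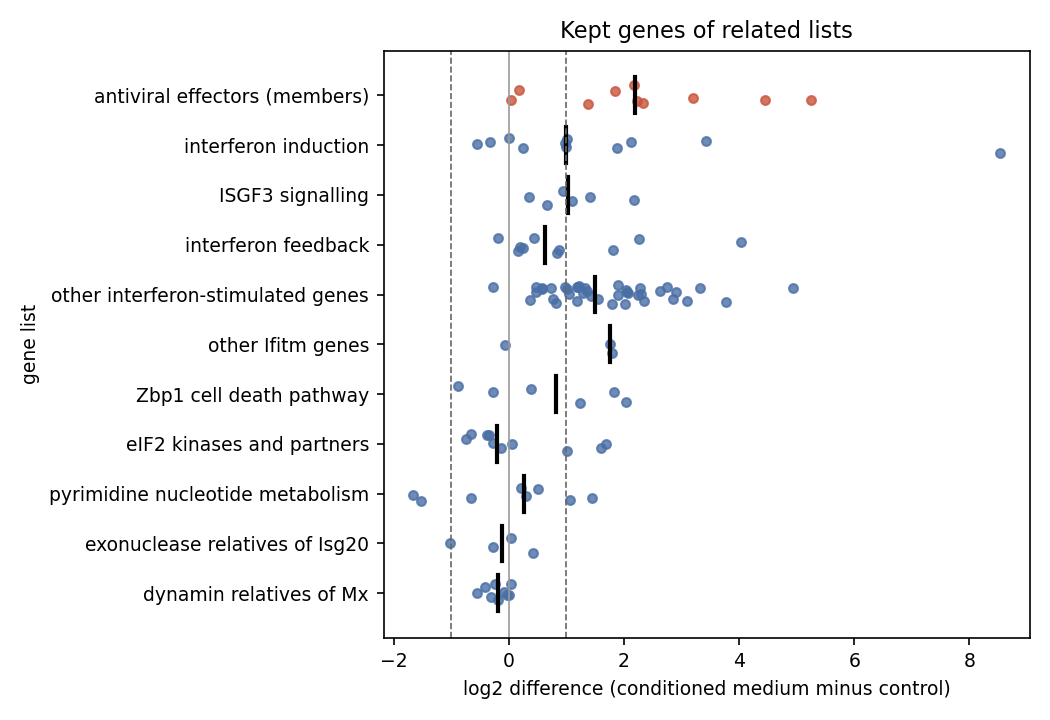
Log2 difference, conditioned medium minus control (x axis), of the kept genes (points, spread vertically at random) of the antiviral effectors and 10 related lists (y axis); black bars are medians and dashed lines mark 2-fold. The effectors have a median of 2.20 and the other interferon-stimulated genes 1.49, while the dynamin relatives of Mx lie within 2-fold of 0.

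The genes most similar in pattern were taken as the kept gene closest to each effector in the plane of the 2 log2 values. For Rsad2 this was Acod1, which encodes the itaconate-producing enzyme (4.99 and 10.10, distance 0.14), and for Cmpk2 it was H2-Oa, a gene of class II antigen presentation (6.47 and 10.54, distance 0.44). Isg20 was closest to Slc43a3 (distance 0.16), Zbp1 to Gadd45b (0.16), Mx1 to Dennd6b (0.02), Mx2 to Rnf135 (0.07), Eif2ak2 to Gm15446 (0.06), Bst2 to Lgals3bp (0.13), Ifitm2 to Slc25a5 (0.09) and Ifitm3 to Mif (0.10). With 2 arrays each pattern is 2 numbers, and a probe set's level also depends on its probes.

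Markers of cell types moved with the same contrast, and fewer cells of a type cannot be told apart from less RNA per cell. Of the dendritic cell markers, Itgax (CD11c) read 8.18 and 7.15 and H2-Aa 9.06 and 10.94. Flt3 was low (4.38 and 3.15) and differed by only -0.28 when its conditioned-medium value was set to the filter level. Zbtb46 lay under the filter on both arrays (3.65 each). As deposited, 4 of 10 kept markers were 2-fold or more higher and 3, Itgax, Flt3 and Batf3 (-2.03), were lower, with a median of 0.39. Their summed signal was 11.17 and 12.28, most of it from H2-Aa and H2-Ab1 (10.16 and 11.30). All 12 neutrophil markers were kept; 9 were 2-fold or more lower and 0 higher, and their summed log2 signal was 13.42 on the control array and 11.51 on the other. Macrophage and monocyte markers had summed signals of 14.08 and 14.35. Most of that sum came from Cd68 (12.13 and 12.37), C1qb (11.71 and 11.97) and Fcgr1 (11.45 and 12.44). Of 11 kept, 1, Ly6c2 (1.18), was 2-fold or more higher. Another 4 were lower by that size, Chil3 (-2.99), Csf1r (-2.93), Ccr2 (-2.48) and Adgre1 (-2.29), and the median was -0.10. Plasmacytoid dendritic cells are relevant to Bst2, whose product marks them in mice. Their 9 measured markers summed to 8.36 and 8.34, and the 6 kept had a median difference of 0.27, with 4 above 0. Pacsin1 (4.18 and 5.35) was the 1 marker past 2-fold, and Siglech, a defining member, read 5.55 and 4.74. Of the 3 lymphocyte lists, T cell markers summed to 6.67 and 6.91 (0 of 4 kept past 2-fold). B cell markers summed to 7.89 and 6.64 (1 of 3 lower) and NK cell markers to 6.50 and 6.86 (1 of 3 higher). That NK cell marker, Gzmb, read 3.21 and 4.57 and was only 1.39-fold higher against the filter level. Mammary tumour and stromal markers summed to 10.48 and 11.08 (2 of 6 kept higher). The 2 were Cdh1, the E-cadherin gene (6.42 and 10.21, 13.8-fold), and Dcn, the decorin gene (3.96 and 7.98, 14.7-fold against the filter level). The other kept markers were lower by less than 2-fold: Krt8 (-0.19), Col1a1 (-0.42), Col3a1 (-0.68) and Acta2 (-0.99). The median of the list was -0.30, and Epcam, Krt14 and Krt18 lay under the filter on both arrays. The part of these shifts in the effectors' values was not tested.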

How the data were processed

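Total RNA of 2 cultures was extracted with Trizol and labelled with biotin by the Affymetrix cRNA procedure, per the labels. Affymetrix Expression Console is the tool in the submitters' processing notes, with version, algorithm and build not given in the sources used here. In the file that the authors deposited there was 1 value per probe set and array (41345 probe sets), read as log2 signal from its range (-0.26 to 13.50) and medians (4.10 and 4.09). After sorting, the arrays were at most 0.28 apart, so a shift of most genes in 1 direction would not be seen. The number of arrays limits the precision.

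Symbols came from the platform annotation: 23521 probe sets had 1 symbol, 1814 several and 16010 were not listed. A gene with several probe sets was represented by that with the highest mean. Genes were counted by size, at least 2-fold; the filter, lists and alternatives are those named in the text and in the closing section. List genes were matched by symbol or gene identifier. Named genes were all members, every measured gene of the ISGF3 and Ifitm lists, the 2 highest and 2 lowest kept genes of the other pathway lists (all where 4 or fewer were kept) and the nearest gene of each member. The members and lists were chosen with earlier results of these data known. Further genes (the remaining eIF2 kinases, further list and marker genes such as Casp8, Cmpk1, Gsdmd and Ppp1r15b, the adjacent genes and Ly6e) were named after their values were seen. The counting code was tested on simulated data with less noise than the SD between probe sets, so that test says nothing of the error of the counts. The protein comparison planned for Mx and Ifitm was not made. Python 3.11.15, numpy 2.4.6, pandas 2.3.3, statsmodels 0.14.6 and matplotlib 3.10.9 were used.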

Additional observations from a re-analysis of the deposited data

How the results depend on the processing

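Alternatives were quantile normalization, subtraction of a lowess curve (fraction 0.3, 3 iterations), centring on kept genes, averaging the probe sets of a gene, leaving out the filter, filtering at the 75th percentile, values under the filter level set to it, and thresholds of 1.5-fold and 3-fold. Under these 9 settings 7 to 8 effectors passed the size rule upward and 0 downward; at 3-fold Bst2 no longer passed. Their median stayed between 2.18 and 2.27, and no effector's difference moved by more than the SD between probe sets. Ifitm2 ranged from 0.04 to 0.21 and Ifitm3 from 0.19 to 0.36. Each effector had 1 probe set and both values above the filter. Averaging probe sets, leaving out the filter and setting low values to it therefore could not change these results. Quantile normalization could change them little, because the sorted arrays were already at most 0.28 apart. Centring shifted the median difference of all kept genes by only 0.004. The filter at the 75th percentile could only drop an effector, and it dropped none. Of the ISGF3 genes 5 passed at 1.5-fold and 1 at 3-fold, and of the other interferon-stimulated genes 19 passed at 3-fold, as a lower or stricter threshold does by construction. Across all kept genes 2274 were higher and 2458 lower at 1.5-fold, and 568 and 290 at 3-fold. Each culture had 1 array, so leaving out a replicate was not possible. No paired analysis was possible because each group has 1 sample.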
